A study of Chlorocebus sabaeus with 10 samples.

Results

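Nuclear receptors are transcription factors that a small lipid-soluble molecule, such as a bile acid, a fatty acid, a steroid or an oxysterol, can switch on or off. The list examined here held 38 genes, chosen by membership of the family and not by measured values, 33 receptors and 5 coregulators, out of 23352 gene symbols in the table, and each was represented by 1 transcript. All were measured in liver biopsies of 10 female vervet monkeys (Chlorocebus sabaeus), which had eaten chow before the experiment. For 6 weeks, 5 animals then received the high fructose (HFr) diet and 5 stayed on chow. Each animal gave 1 library of polyadenylated RNA, and the comparison asked which liver transcripts differed after a short fructose challenge. Whole biopsies mix cell types, so fewer cells of a type and less RNA per cell cannot be told apart.

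In the liver these receptors link diet to metabolism. PPAR family members respond to fatty acids, the liver X receptors (LXR) to oxysterols, and the farnesoid X receptor (FXR) to bile acids, and most of them bind DNA as a pair with a retinoid X receptor. Other members set the identity of the hepatocyte, respond to hormones or belong to the circadian clock. Coactivators such as NCOA1 and corepressors such as NCOR1 are recruited by the bound receptor and decide whether the nearby gene is transcribed or silenced. A receptor can change its activity without any change in its own transcript, and transcripts are what was measured.

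The libraries held 2977282 to 4992505 estimated counts each. Mitochondrial transcripts took 34.7% to 73.6% of them, with means of 55.5% ± 11.8 on HFr and 55.4% ± 16.5 on chow (SD, n = 5 each, two-sided exact permutation p = 0.992), and 864571 to 2657103 counts per animal were left for nuclear transcripts. A normalized count below is an estimated count scaled to a common library size with TMM factors (trimmed mean of M values, counts per 1e+06). All 8 hepatocyte markers on the list used to check the tissue were detected, with summed levels of 40489 to 64198 normalized counts on HFr and 35976 to 70592 on chow. Chow replicates 1 and 5 stood apart in the 8 markers of stellate cells and fibroblasts, at 827 and 686 summed normalized counts against 180 to 407 in the other 8 animals. No stellate marker was at 0, and the diets overlapped in this sum (two-sided exact permutation p = 0.69).

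Of the 38 genes, 24 passed the count filter, which asks for about 10 counts in as many animals as a diet holds, and were tested. They were 21 receptors and 3 coregulators, and 19 of them reached at least 10 counts in every animal. Below that in some animal were PPARD (5 to 69 counts), NR1I2 (6 to 54) and PPARG (6 to 36). So were NR2F1 (7 to 29) and NR1D1 (4 to 31). The other 14 of the 38 genes were below the filter. HNF4A, the receptor that maintains hepatocyte identity, had the highest level with a mean of 207 normalized counts over the 10 animals, followed by NR1H4 (FXR) with 138 and RXRA, the main hepatic retinoid X receptor, with 120. Together these 3 receptors held 45.8% of the normalized counts of the 38 genes, whereas the 14 genes below the filter held 1.56%. A longer transcript gives more reads, and transcript lengths were not used here, so this is an order of reads and not of RNA molecules.

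Below the leading trio the order was loose. ESR1, the estrogen receptor alpha gene, had 61.9 normalized counts, NCOR1 58.6 and NR1I3, the constitutive androstane receptor (CAR) gene, 50.3. Then 8 genes lay between 37.3 (NR2F6) and 24.2 (NCOA2), 5 between 20.3 (NCOA1) and 11.4 (NR1H3), and 5 between 6.92 (PPARD) and 3.85 (NR1D1). Only 2 of the 37 neighbouring pairs kept their order in all 10 animals, RXRA above ESR1 and NR1H2 above HNF4G. HNF4A exceeded NR1H4 in 9 animals, and NR1H4 exceeded RXRA in only 6.

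**Figure D1:**
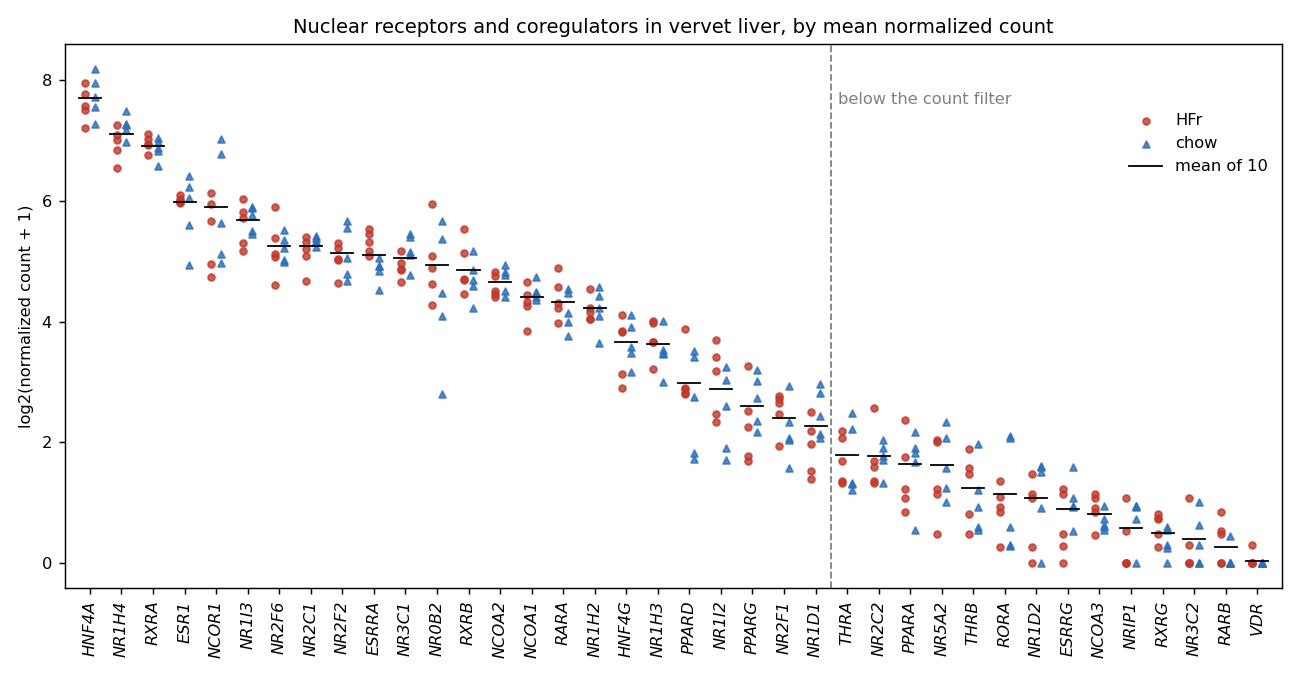
Level of each of the 38 genes in every animal, as log2(normalized count + 1), ordered by the mean over 10 animals; circles are HFr animals, triangles chow animals and bars the means. HNF4A, NR1H4 and RXRA lie at the top, the 14 genes right of the dashed line were below the count filter, and for most genes the animals of both diets lie in the same range.

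The levels varied between animals about as much as those of other transcripts. The coefficient of variation over the 10 animals had a median of 24.9% for the 24 tested genes and 27.1% for all 7948 tested transcripts. It was lowest for RXRA, at 10.4%, and highest for NCOR1, at 59.5%. RXRA had 121, 108, 129, 137 and 123 normalized counts in the HFr animals and 116, 132, 94.8, 125 and 112 in the chow animals. This partner of many other receptors was thus the steadiest of the tested genes.

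No gene of the set differed between the diets after adjustment over all tested transcripts. In edgeR's quasi-likelihood fit, 11 of these 24 genes were higher on HFr and 13 lower, with a median log2 fold change of -0.04, while 49.8% of all tested transcripts were higher. One gene, ESRRA, had an unadjusted p under 0.05. That is 4.17% of the 24, against 4.29% of all 7948 tested transcripts (2.06% higher and 2.23% lower on HFr), so the share was that of the background. None had a Benjamini-Hochberg adjusted p under 0.05, as was the case for 0 of all tested transcripts, and the adjusted p of each of the 24 was 0.9996. For 23 of the 24 the 95% interval of the log2 fold change held 0.

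**Figure D2:**
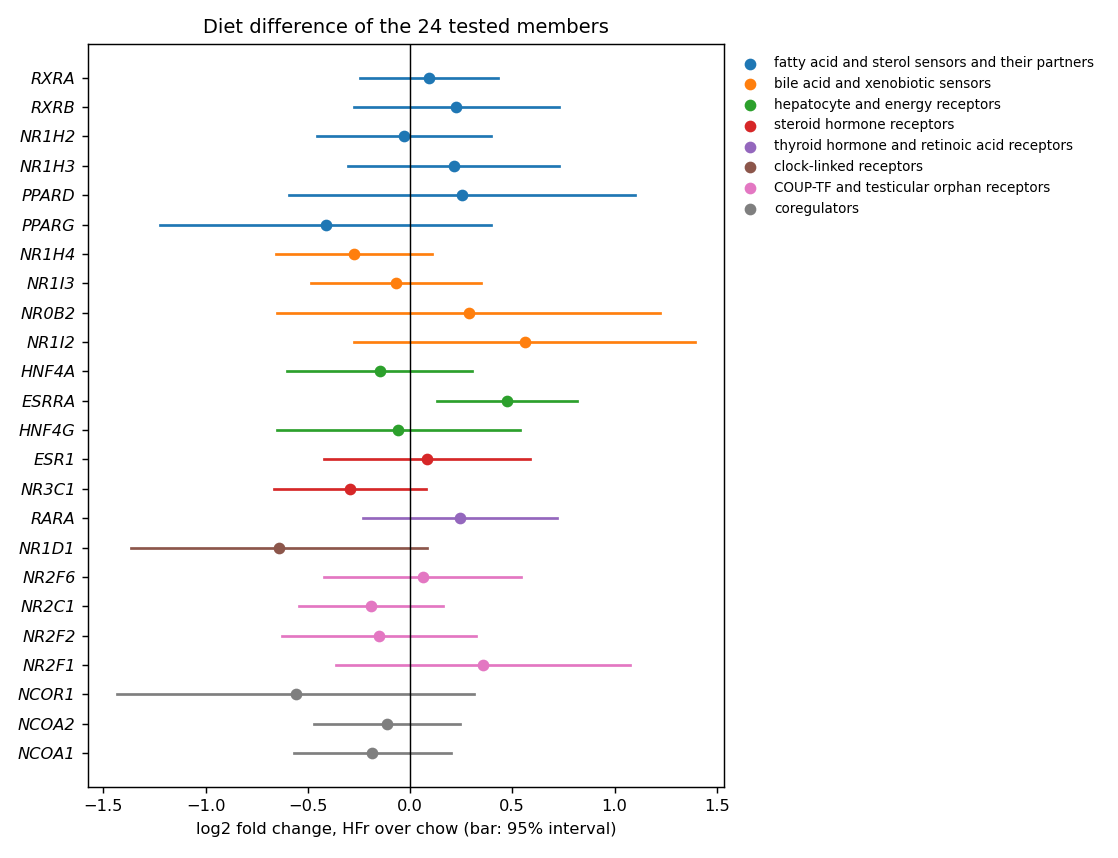
Log2 fold change of HFr over chow for the 24 tested genes, grouped by role, with the 95% interval from edgeR's quasi-likelihood fit (5 animals a diet). ESRRA is the one gene whose interval, from 0.13 to 0.82, lies to one side of 0, and the intervals of NR1D1, NCOR1, NR1I2 and PPARG are the widest among those with the largest estimates.

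Among the fatty acid and sterol sensors and their partners, 6 of 8 were tested. RXRA, RXRB, NR1H3 and PPARD were higher on HFr by 0.09 to 0.25 on the log2 scale, and NR1H2 and PPARG were lower, with no unadjusted p under 0.05. PPARG, the adipogenic PPAR that is low in normal liver, had 8.67, 2.24, 2.42, 3.78 and 4.75 normalized counts on HFr and 8.23, 3.50, 5.68, 7.08 and 4.14 on chow. Both diets held animals above 8, and the log2 fold change was -0.41 (standard error 0.38, 95% interval -1.22 to 0.40). The LXR pair differed little. NR1H3 (LXR alpha) had 12.3 ± 2.75 normalized counts on HFr and 10.6 ± 2.91 on chow, and NR1H2 (LXR beta) had 17.6 ± 2.74 and 17.8 ± 4.33 (SD, n = 5 each). NR1H3 shares its strand and part of its position with MADD, and some of its counts were split fractionally between the pair.

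PPARD, a widely expressed PPAR, had 6.41, 6.06, 6.45, 6.0 and 13.7 normalized counts on HFr and 5.71, 9.64, 10.5, 2.53 and 2.30 on chow. HFr replicate 5 alone lay far above the other HFr animals. The log2 fold change was 0.25 (standard error 0.40) and became -0.08 without that animal.

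The bile acid and xenobiotic sensors were 5 genes, of which 4 were tested. NR1H4 encodes FXR, which bile acids activate and which restrains their synthesis, and lies on chromosome 11 of ChlSab1.1 from 95792996 to 95878293. It had 153, 92.9, 128, 136 and 114 normalized counts on HFr and 178, 143, 151, 125 and 154 on chow. One HFr animal exceeded the chow mean, and the ranges overlapped. The log2 fold change was -0.27 (standard error 0.18, 95% interval -0.66 to 0.11, unadjusted p = 0.148 from edgeR).

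NR0B2 encodes SHP, a receptor without a DNA-binding domain that FXR induces and that represses bile acid synthesis genes. It was among the most variable of the set, with 18.5, 28.7, 23.8, 32.9 and 61.1 normalized counts on HFr and 16, 49.7, 40.5, 21.2 and 5.97 on chow. The highest animal, HFr replicate 5, and the lowest, chow replicate 5, were 10.2-fold apart. The log2 fold change of 0.29 had a standard error of 0.44. Without HFr replicate 5 it was -0.06. Across the 10 animals the relation of NR0B2 and NR1H4 did not pass the threshold (Pearson r = -0.40, permutation p = 0.249 and 0.87 adjusted over 8 gene pairs; Spearman rho = -0.56, p = 0.0943 and 0.445 adjusted). This does not show that the genes are unrelated, and the sign of r turned when scaled by library size only. Without HFr replicate 2 and chow replicate 1, r was -0.48, and within diets it was -0.43 on HFr and -0.27 on chow.

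NR1I2 (the pregnane X receptor, PXR) and NR1I3 (CAR) induce drug-metabolizing enzymes. NR1I2 had 4.52, 9.64, 4.03, 12.0 and 8.11 normalized counts on HFr and 2.29, 8.54, 7.15, 5.05 and 2.76 on chow. The difference was 0.56 on the log2 scale (standard error 0.39, 95% interval -0.27 to 1.39). The lowest values, in chow replicates 1 and 5, belonged to the animals with the most stellate marker counts, and without this pair of animals the log2 fold change was 0.15. NR1I3 had 49.1 ± 12.1 normalized counts on HFr and 51.5 ± 7.53 on chow (SD, n = 5 each), and its log2 difference was -0.07 (standard error 0.19). It overlaps TOMM40L on the opposite strand.

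Of the 5 hepatocyte and energy receptors, HNF4A, HNF4G and ESRRA were tested. HNF4A had 182, 246, 147, 189 and 217 normalized counts on HFr and 291, 247, 210, 186 and 153 on chow. The diets covered nearly the same range, with a log2 fold change of -0.15 (standard error 0.21), and HNF4G, its relative, stood at -0.06 (standard error 0.28).

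ESRRA encodes the estrogen-related receptor alpha, an orphan receptor that drives genes of mitochondrial respiration and fatty acid oxidation, and lies on chromosome 1 from 9917436 to 9929450. It had 35, 45.3, 33.1, 42.7 and 39.2 normalized counts on HFr and 29.2, 27.6, 32.1, 29.3 and 22.1 on chow. All 5 HFr animals lay above all 5 chow animals, although the lowest HFr and highest chow animals were close. Of the 24 tested genes it was the one whose diets did not overlap, against 0.541% of all tested transcripts. The log2 fold change was 0.47 (standard error 0.16, 95% interval 0.13 to 0.82), with an unadjusted p of 0.0103 in edgeR and 0.9996 after adjustment. The two-sided exact permutation p was 0.00794, the smallest that 5 animals against 5 can give. Any gene whose diets do not overlap gets this value, so it adds nothing to the lack of overlap. ESRRA was singled out among 24 genes.

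The ESRRA difference had an unadjusted p under 0.05 in 21 of 23 alternatives. Scaled by library size only, the log2 fold change was 0.48 with an unadjusted p of 0.198 from edgeR, and the diets overlapped. Without chow replicates 1 and 5, the log2 fold change was 0.39, with an unadjusted p of 0.0563 from edgeR. Over all 23 alternatives the log2 fold change lay between 0.39 and 0.53. An unnamed gene (ENSCSAG00000007187) with 314 counts in all lies within ESRRA, which had 1302, on the opposite strand. The library kit keeps strand, but how strand was used in counting is not given in the sources used here.

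**Figure D3:**
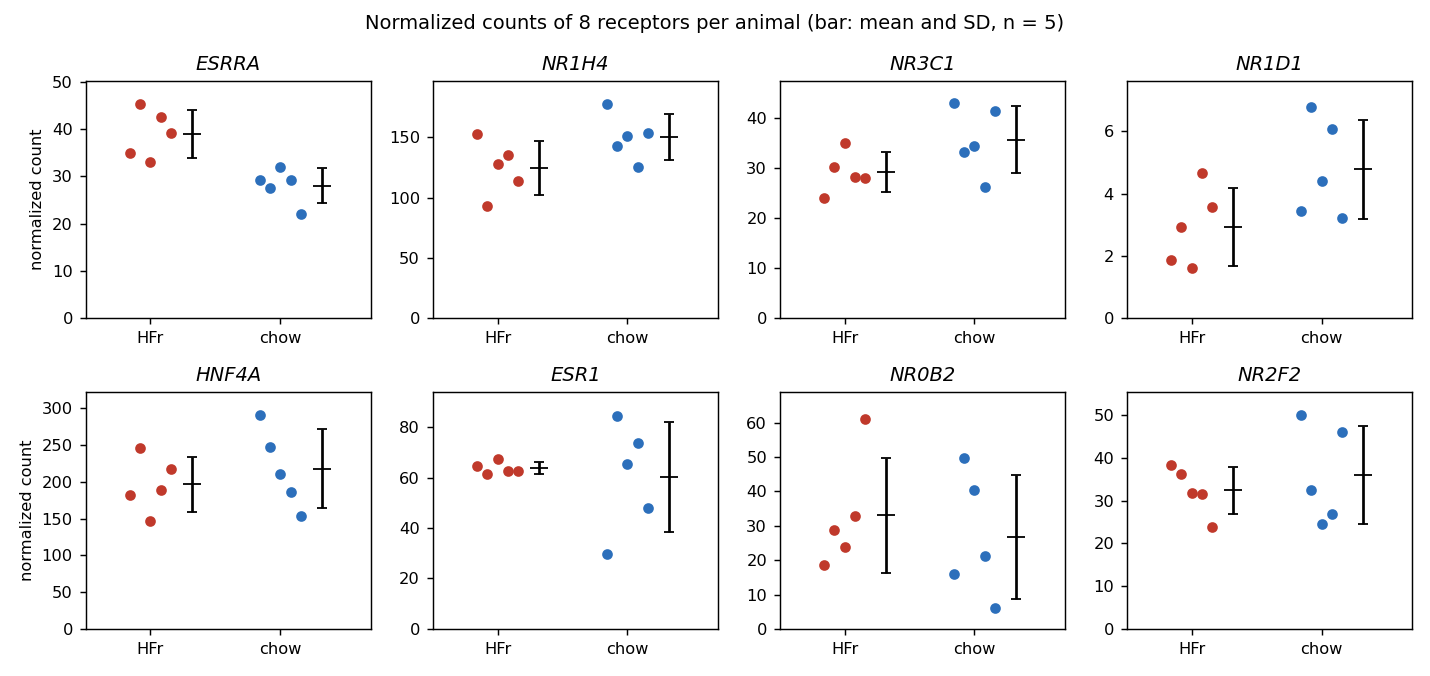
Normalized counts per animal of 8 receptors on HFr and chow, with the mean and SD (n = 5) beside the points; every vertical axis starts at 0. ESRRA separates the diets, and NR1H4, NR3C1 and NR1D1 lean lower on HFr with overlap. ESR1 and NR2F2 have chow animals far from the others, and NR0B2 is spread widely in both diets with HFr replicate 5 highest.

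The steroid hormone receptors were 3 genes, of which ESR1 and NR3C1 were tested. ESR1, which mediates estrogen action and is the dominant estrogen receptor of liver, had 64.4, 61.5, 67.4, 62.6 and 62.5 normalized counts on HFr and 29.7, 84.3, 65.5, 73.8 and 47.8 on chow. The HFr animals lay within a narrow band and the chow animals on both sides of it, with SDs of 2.32 and 21.7 around means of 63.7 and 60.2. The log2 fold change was 0.08 (standard error 0.24), and the difference in spread was not tested. The low chow animals were replicates 1 and 5, those with the most stellate marker counts.

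NR3C1, the glucocorticoid receptor gene, had 24.1, 30.3, 35.1, 28.2 and 28.1 normalized counts on HFr and 43.0, 33.3, 34.5, 26.3 and 41.4 on chow. No HFr animal exceeded the chow mean of 35.7, yet the ranges overlapped, and the log2 fold change was -0.30 (standard error 0.17, 95% interval -0.67 to 0.08, unadjusted p = 0.111 from edgeR). An unnamed gene on the opposite strand inside NR3C1 (ENSCSAG00000012347) had 9615 counts against 1225 for NR3C1 itself. NR3C2, the mineralocorticoid receptor gene, was below the filter.

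Of the 4 thyroid hormone and retinoic acid receptors only RARA was tested. It had 20.6 ± 5.35 normalized counts on HFr and 17.5 ± 4.14 on chow (SD, n = 5 each), which differed by 0.25 on the log2 scale (standard error 0.22).

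NR1D1 encodes REV-ERB alpha, a clock repressor that also silences metabolic genes through NCOR1, and was the one clock-linked receptor of 3 to be tested. It had 1.88, 2.92, 1.61, 4.67 and 3.56 normalized counts on HFr and 3.43, 6.79, 4.40, 6.06 and 3.22 on chow. All HFr animals lay below the chow mean of 4.78, but HFr replicates 4 and 5 exceeded some chow animals. The log2 fold change of -0.64 was the lowest of the 24 (standard error 0.34, 95% interval -1.36 to 0.08, unadjusted p = 0.0781 from edgeR). Without chow replicates 1 and 5 it was -0.90, with an unadjusted p of 0.0331 from edgeR. The time of day of the biopsies was not given in the sources used here, and NR1D1 and THRA overlap on opposite strands of chromosome 16, with 150 and 90 counts in all.

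The COUP-TF and testicular orphan receptors were 5 genes, of which 4 were tested. NR2F1 was higher by 0.36 (standard error 0.34) and NR2F6 by 0.06 (0.22) on the log2 scale, and NR2C1 stood at -0.19 (0.16) and NR2F2 at -0.15 (0.22). NR2F2 encodes COUP-TFII, known from mesenchymal and venous endothelial cells as well as hepatocytes. It had 38.4, 36.1, 31.9, 31.5 and 23.9 normalized counts on HFr and 50.04, 32.4, 24.6, 26.8 and 46.0 on chow. The 2 highest animals of all were chow replicates 1 and 5, and without them the log2 fold change turned to 0.20.

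Across the 10 animals NR2F2 rose with the summed stellate markers, a relation examined for all 24 genes after these values had been seen. On the log2 scale Pearson r was 0.92 (permutation p = 0.00026, adjusted over the 24 genes 0.00624) and Spearman rho 0.88 (p = 0.00152, adjusted 0.0182). It was 0.88 within HFr and 0.94 within chow, 0.78 without the pair of outlying chow animals, and 0.85 when scaled by library size only. NR0B2 ran the other way, with r = -0.84 (permutation p = 0.0017, adjusted 0.0204) and rho = -0.92 (p = 0.00052, adjusted 0.0125). It was -0.94 within HFr, -0.83 within chow and -0.79 without the same pair, but -0.21 when scaled by library size only. ESR1 (r = -0.79, permutation p = 0.00428, adjusted 0.0342; rho = -0.52, p = 0.132, adjusted 0.386) and NR1I2 (r = -0.79, p = 0.00635, adjusted 0.0381; rho = -0.71, p = 0.0271, adjusted 0.181) were weaker without the pair, at r = -0.23 and -0.44. For ESR1 r was 0.49 within HFr and -0.87 within chow, and for NR1I2 it was -0.61 and -0.96. Scaled by library size only, the relations of ESR1 and NR1I2 were also weaker. These 4 were the genes of the 24 with an adjusted p under 0.05 for r. Over all tested transcripts the median r with the stellate markers was -0.004. In the order of their r, NR2F2 stood at percentile 99.8, NR0B2 at 0.79, ESR1 at 1.52 and NR1I2 at 1.55.

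All 3 tested coregulators were lower on HFr, none with an unadjusted p under 0.05. NCOA1, a p160 coactivator, had 24.1, 20.6, 18.2, 13.3 and 19.0 normalized counts on HFr and 21.3, 19.5, 21.5, 20.2 and 25.7 on chow (log2 fold change -0.18, standard error 0.18). NCOA2, a second member of that family, had 20.3, 26, 21.8, 21.1 and 27.3 on HFr and 27.4, 26.5, 29.7, 21.7 and 20.2 on chow (-0.11, standard error 0.17). In NCOA1 the HFr values of 18.2, 13.3 and 19.0 lay below every chow animal, and those of 24.1 and 20.6 lay within the chow range. In NCOA2 the diets overlapped broadly.

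NCOR1 encodes the corepressor that brings histone deacetylase activity to unliganded receptors and to REV-ERB. It had 61.0, 25.8, 69.0, 49.99 and 30.1 normalized counts on HFr and 48.9, 30.4, 33.7, 108 and 129 on chow. The high values were chow replicates 4 and 5, and the log2 fold change was -0.56 (standard error 0.41, 95% interval -1.43 to 0.31, unadjusted p = 0.191 from edgeR). These were also the 2 animals with the largest mitochondrial share of counts, 73.6% and 68.7%.

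NCOR1 followed the mitochondrial share in both diets, a relation examined for all 24 genes with the values in view. Pearson r across the 10 animals was 0.92 (permutation p = 0.00024, adjusted over the 24 genes 0.00576) and Spearman rho 0.92 (p = 0.00052, adjusted 0.0125). It was 0.98 within HFr, 0.95 within chow and 0.91 without HFr replicate 2 and chow replicate 2. The shares fell into a lower and a higher range with a gap between 44.0% and 57.1%, and in the 6 animals above the gap r was 0.84. Scaled by library size only, r was 0.74. The TMM factor, by which counts are divided, was 1.49 in the animal with the lowest share and 0.607 in the one with the highest. How much of r comes from this factor was not tested. Of all tested transcripts, 1.598% had an r above 0.8, and NCOR1 was the one of the 24 genes with an adjusted p under 0.05. With the mitochondrial percent as a covariate, the log2 fold change of NCOR1 was -0.44, with an unadjusted p of 0.0265 from edgeR. NCOA2 had r = -0.81 (permutation p = 0.0113, adjusted 0.0901) and PPARD r = -0.78 (permutation p = 0.00641, adjusted 0.0769) with the same share. RNA quality was not measured in these files, and its part in the NCOR1 values was not tested.

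**Figure D4:**
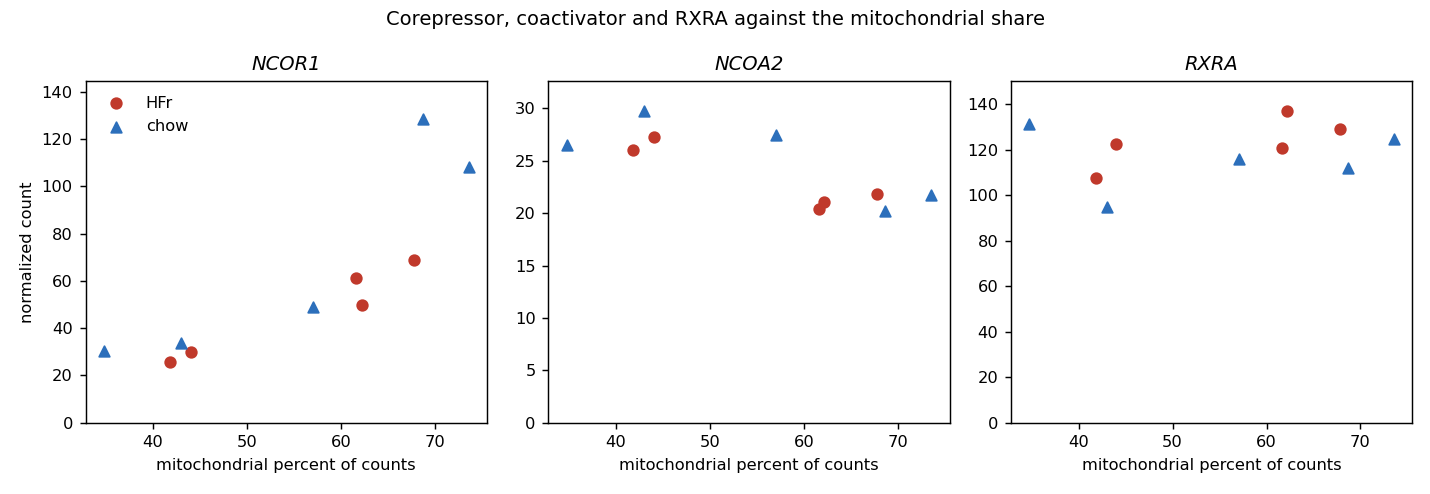
Normalized counts of NCOR1, NCOA2 and RXRA against the percent of each library's counts on mitochondrial transcripts, 1 point an animal (circles HFr, triangles chow); vertical axes start at 0. NCOR1 lies between about 26 and 129 and tends to be higher at a larger share, NCOA2 leans downward, and RXRA stays between 94.8 and 137.

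Of the genes below the filter, 7 had a count in every animal, among them PPARA, the PPAR that switches on hepatic fatty acid oxidation. PPARA had 11, 6, 2, 5 and 12 counts in the HFr animals and 2, 10, 19, 5 and 6 in the chow animals, 36 against 42 in sum. THRA (47 and 43 counts on HFr and chow), NR2C2 (51 and 47), NR5A2 (33 and 50), THRB (33 and 28), RORA (17 and 28) and NCOA3 (17 and 11) completed that set. A few counts per animal could not resolve a difference of this size. NR1D2 (17 and 28), ESRRG (12 and 18), NRIP1 (7 and 14), RXRG (10 and 4), NR3C2 (6 and 6) and RARB (6 and 2) were at 0 in 1 or more animals.

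VDR, the vitamin D receptor gene, had 1 count in 1 animal. A count of 0 allows up to 3 counts, which is 0.550 to 1.52 normalized counts in these libraries and covers counting error only. The HFr animals held 50.8% of all nuclear counts, so the sums of both diets rest on nearly equal depth. When every transcript with a count was tested, 0 of these 14 genes had an unadjusted p under 0.05 from edgeR, the smallest was 0.188, and 6 were higher and 8 lower.

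The genes that these receptors are known to regulate were read off the same fit, from lists written from general knowledge. Of 20 PPAR alpha targets 18 were tested, and 17 were higher on HFr with a median log2 fold change of 0.49, where the median of all tested transcripts was close to 0. Earlier results of these data had already brought out some of these targets. An unadjusted p under 0.05 was reached by 5 of them (27.8%), all higher, against 2.06% of all tested transcripts, and none was adjusted under 0.05. FABP1, which carries fatty acids in the hepatocyte, differed by 1.20 on the log2 scale (standard error 0.34), PDK4, which spares glucose, by 0.75 (0.26), HADHA of the beta-oxidation complex by 0.67 (0.24), and SLC25A20, the carnitine carrier, by 0.46 (0.19). In each of these 4 genes the diets overlapped in at least 1 animal. HFr replicate 2 was the highest of all animals in FABP1 (1530 normalized counts), HADHA (132) and SLC25A20 (72.4), and HFr replicate 1 in PDK4 (263). The exception to the direction was FGF21, at -0.66 (standard error 0.9985). The 18 genes were read in the same animals, so they are not 18 separate results. Leaving out 1 animal gave 3 to 12 genes with an unadjusted p under 0.05 over all the lists. The lowest number was without HFr replicate 2. This was not examined for the PPAR alpha list alone. The PPARA transcript itself had 36 and 42 counts in the same libraries.

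Of the 10 estrogen-related receptor targets on the list, 6 were tested and 5 were higher. The list includes ESRRA, which regulates its own gene, and these 2 had an unadjusted p under 0.05, ESRRA and PDK4, where 2.06% of all tested transcripts were higher with such a p. Both were already counted above, ESRRA among the 24 genes and PDK4 among the PPAR alpha targets, while the remaining 4 lay between -0.15 and 0.19 on the log2 scale. For the clock partners of REV-ERB and ROR, 12 of 15 were tested with a median of 0.03. BHLHE40, a clock repressor, had 21.1, 9.20, 37.9, 22.9 and 45.7 normalized counts on HFr and 33.1, 57.2, 138, 21.7 and 43.2 on chow. Chow replicate 3 stood highest, and the difference was -1.12 on the log2 scale (standard error 0.47), with an unadjusted p of 0.0326 from edgeR and an adjusted p of 0.9996. The two-sided exact permutation p of the same values was 0.151. NPAS2 was at 0.58 (standard error 0.49). ARNTL, which REV-ERB alpha represses, was at -0.09 (standard error 0.41), and NR1D1 gave r = -0.16 with it (permutation p = 0.644, adjusted 0.87; rho = -0.08, p = 0.838, adjusted 0.898) and -0.28 without HFr replicate 3 and chow replicate 2. NR1D2, the related REV-ERB beta gene, gave r = -0.06 with NR1D1 (permutation p = 0.87, adjusted 0.87; rho = -0.19, p = 0.588, adjusted 0.898) and 0.07 with ARNTL (permutation p = 0.855, adjusted 0.87; rho = 0.05, p = 0.898, adjusted 0.898). Within HFr and chow r was -0.30 and -0.18 for NR1D1 with ARNTL, 0.15 and -0.76 for NR1D1 with NR1D2, and -0.64 and 0.74 for NR1D2 with ARNTL, with 5 animals each and no test. None of these 3 clock pairs passed the threshold over the 10 animals.

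The other lists held no gene with an unadjusted p under 0.05. Of 8 tested LXR targets 6 were higher, led by ABCG8 (log2 fold change 0.35, standard error 0.30) and LPCAT3 (0.33, 0.28), with a median of 0.21. The 2 lower ones were SREBF1 (-0.09, 0.52) and SCD (-0.28, 0.74). Of 8 tested FXR and SHP targets 3 were higher and 5 lower. The list mixes genes that FXR induces, such as NR0B2, with genes that SHP represses, such as CYP7A1. The split of signs therefore gives no direction for the pathway as a whole. NR0B2, already counted among the 24 genes, was at 0.29 (standard error 0.44). CYP7A1, the rate-limiting enzyme of bile acid synthesis, had 1.13, 0.449, 7.67, 0.222 and 10.7 normalized counts on HFr and 5.26, 7.88, 11.4, 6.06 and 5.06 on chow. HFr replicates 1, 2 and 4 had only 3, 2 and 1 counts and lay below every chow animal, which had 11 to 62. The other HFr animals lay within the chow range, so the log2 fold change of -0.85 had a standard error of 0.68. NR0B2, which represses CYP7A1, gave r = 0.17 with it (permutation p = 0.643, adjusted 0.87; rho = 0.49, p = 0.154, adjusted 0.445), and r was again 0.17 without HFr replicate 5 and chow replicate 5. Within diets it was 0.45 on HFr and 0.80 on chow. APOC3 was at 0.35 (standard error 0.31).

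Of 10 tested PXR and CAR targets 5 were higher and 5 lower. CYP3A4, the major drug-metabolizing cytochrome P450, was at -0.56 (standard error 0.27, unadjusted p = 0.0546 from edgeR), with 1253 to 2484 normalized counts on HFr and 1842 to 3385 on chow, and ABCB1, a drug efflux pump, was at 0.67 (0.33). Both are PXR targets, and they lay on opposite sides of 0. The estimated counts of CYP3A4 were fractional, so some of its reads were split between transcripts, and the effect of this was not tested. NR1I2 and CYP3A4 gave r = -0.46 (permutation p = 0.186, adjusted 0.87; rho = -0.48, p = 0.167, adjusted 0.445), or 0.01 without chow replicates 1 and 5, and NR1I3 and CYP2B6 gave r = 0.10 (permutation p = 0.787, adjusted 0.87; rho = 0.14, p = 0.709, adjusted 0.898), or -0.14 without HFr replicates 1 and 2.

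Of 10 tested glucocorticoid receptor targets 7 were higher and 3 lower. FKBP5, a chaperone that glucocorticoids induce, was at 0.50 (standard error 0.28) and DUSP1, a phosphatase they also induce, at -0.66 (0.38). Thyroid hormone targets were split 3 and 3, with CYP7A1 and THRSP (-0.90, standard error 0.79) having the smallest p. HNF4 alpha targets were split 6 and 5 with a median of 0.04, led by F9 (0.36, standard error 0.25) and OTC (-0.22, 0.17). All 4 tested vitamin D and retinoid targets were lower, CYP26A1 at -0.40 (standard error 0.33). CYP3A4, already counted among the PXR and CAR targets, was another of these 4.

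**Figure D5:**
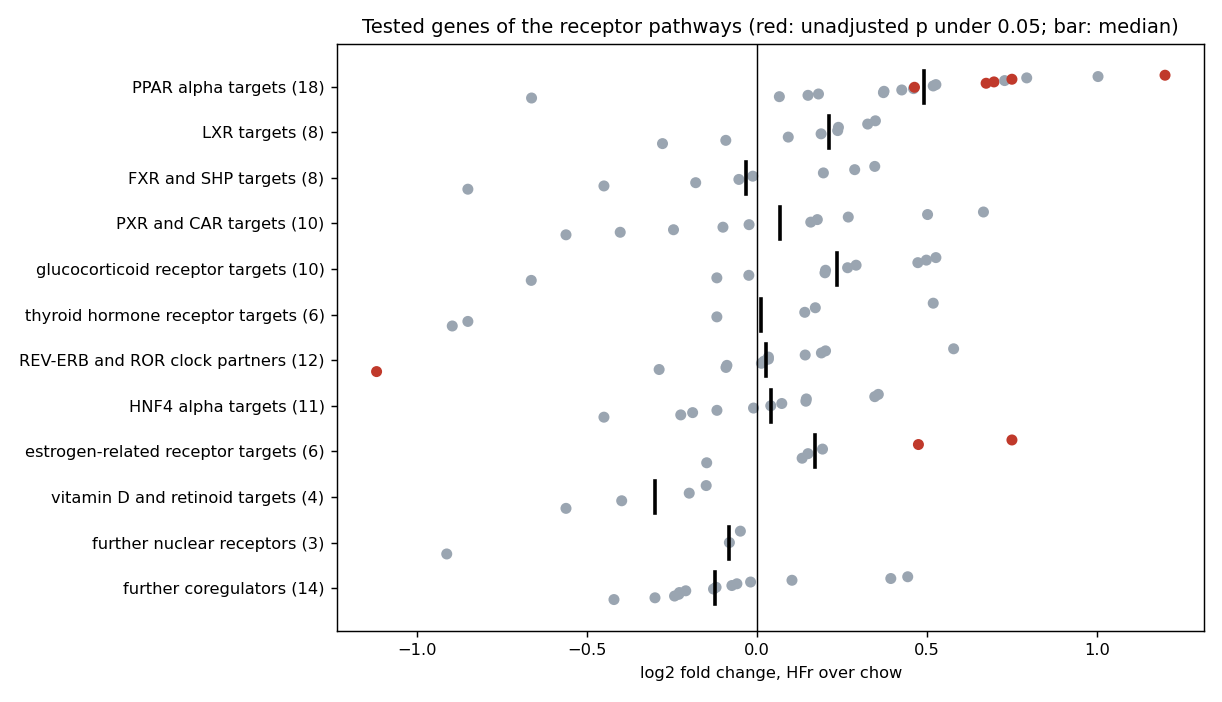
Log2 fold change, HFr over chow, of every tested gene in the lists of receptor targets, further receptors and further coregulators; red points have an unadjusted p under 0.05 and black bars are list medians. The PPAR alpha list lies mostly to the right of 0 with a median of 0.49, and the medians of the other lists lie within 0.30 of 0.

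Few receptors outside the 38 could be tested. Of 15 further nuclear receptors 3 were tested, all lower. NR4A1, an immediate early orphan receptor, was at -0.91 (standard error 0.43, unadjusted p = 0.0505 from edgeR) and NR4A2 at -0.05. Of 21 further coregulators 14 were tested, 3 higher and 11 lower, with a median of -0.12 and no unadjusted p under 0.05. PELP1 was at -0.24 (standard error 0.17). Over all lists without the 38 genes, 99 genes were tested, and 5 higher and 1 lower had an unadjusted p under 0.05, 6.06% against the 4.29% of all tested transcripts.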

How the data were processed

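RNA was sequenced as 100 base paired-end reads from stranded polyadenylated libraries of 10 liver biopsies, 5 on HFr and 5 on chow. The authors aligned the reads to ChlSab1.1 (Ensembl release 93) with STAR 2.5.3a and deposited estimated counts per transcript, made by expectation-maximization in Partek, together with TMM-normalized signal values. The submitters' processing notes also name CASAVA 1.8 and FastQC. Of the estimated counts, 97.7% were whole.

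Estimated counts were rounded, filtered with filterByExpr (minimum count 10, minimum total 15) and compared with edgeR 4.0.16 in R 4.3.3 (TMM, quasi-likelihood test, diet as the only term). P-values were adjusted by Benjamini-Hochberg over the 7948 tested of 28078 transcripts. The log2 values in correlations used a pseudocount of 1, and permutation tests used 100000 draws, or all 252 assignments of the animals. Depth was 2977282 to 4992505 counts per animal. Intervals and floors cover these animals and counting error only. On simulated data (7948 transcripts), a log2 fold change of 1 given to 100 transcripts had an unadjusted p under 0.05 in 86% of them and passed adjustment in 50%. The simulated set also held 100 transcripts with a log2 fold change of 2. Measured genes differed in precision, with a standard error of 0.16 for RXRA and 0.44 for NR0B2. FABP1, at 1.20, had an adjusted p of 0.9996 from edgeR. The simulated shares hold for those settings only and are not the share of such changes that would be found in these animals.

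The deposited signal values served only an equal-variance test as an alternative, which is the test of the study. Other alternatives were DESeq2 1.42.0, limma 3.58.1, other scalings and filters, a mitochondrial covariate, a replicate block and each animal left out. Genes named are the 38 genes, those of 8 gene pairs, and from each further list the genes with an unadjusted p under 0.05, else the 2 with the smallest p. FGF21, SREBF1, SCD, NR4A2 and the animals left out in pairs were chosen after values were seen. Members, lists and pairs were chosen with earlier results of these data known. Values of 3 genes on the lists and of 1 gene pair, which enter the counts and adjustments, are not reported here. Lengths and sequences were not used here.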

Additional observations from a re-analysis of the deposited data

Results flagged for a closer look

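PPARD in HFr replicate 5 had 13.7 normalized counts, against 6.0 to 6.45 in the other 4 HFr animals, which set it far from its group relative to the group's range. Leaving that animal out moved the log2 fold change of PPARD from 0.25 to -0.08. Among 48 groups examined (24 genes in 2 diets) it was the 1 that stood out this way, and chance singles out about 1 in 20.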

How the results depend on the processing

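None of the 24 genes had an adjusted p under 0.05 in any of 547 gene-by-alternative fits (lowest 0.838). ESRRA lost its unadjusted p under 0.05 in 2 of 23 alternatives, with a log2 fold change of 0.39 to 0.53 over all of them. Of 26 fits with an unadjusted p under 0.05, 5 were not of ESRRA (NCOR1 with the mitochondrial covariate, NR3C1, PPARG and NR1D1 without 1 animal, NR1D1 without chow replicates 1 and 5). Scaled by library size only, 123 of all transcripts instead of 341 had an unadjusted p under 0.05, with 0 of the 24 genes and 0 that did not overlap, and NCOR1 gave r = 0.74 with the mitochondrial share. With any count as the filter there were 756 of 16066 transcripts (341 of 7948 before) and 12 of 124 target genes (6 of 99 before). With the mitochondrial covariate 2 of the 24 genes and 406 of all transcripts passed. Leaving out 1 animal gave 260 to 408 of all transcripts, 1 to 2 of the 24 to 26 genes then tested, 3 to 12 target genes (3 without HFr replicate 2, 10 without HFr replicate 5 or chow replicate 3, 12 without chow replicate 4) and r of 0.90 to 0.95 for NCOR1.

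Signs changed in 23 of these fits, in 8 genes. With 1 animal left out the log2 fold change ranged from -0.10 to 0.24 for ESR1, -0.19 to 0.023 for NR1I3, -0.16 to 0.18 for NR2F6, -0.27 to 0.0011 for NR2F2, -0.064 to 0.63 for NR0B2, -0.14 to 0.077 for NR1H2, -0.23 to 0.094 for HNF4G and -0.075 to 0.52 for PPARD. It turned with limma for NR2F6 (-7.72e-05) and NR1H2 (0.0071), with the equal-variance test for NR1H2 (0.026), and without chow replicates 1 and 5 for ESR1 (-0.23), NR2F6 (-0.013), NR2F2 (0.20), NR0B2 (-0.18) and PPARD (-0.038). Scaled by library size only, r turned for NR1D1 with ARNTL (0.38) and NR1D2 (0.35), NR1H4 with NR0B2 (0.53) and NR1I2 with CYP3A4 (0.22). With 1 animal left out r ranged from -0.29 to 0.060 for NR1D1 with ARNTL, -0.40 to 0.21 for NR1D1 with NR1D2, -0.26 to 0.34 for NR1D2 with ARNTL, and -0.087 to 0.26 for NR1I3 with CYP2B6. The causes were not tested.

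Replicate numbers did not pair the animals (r of same-numbered deviations -0.29 to 0.10). With the replicate block 271 transcripts, 1 of the 24 genes and 7 target genes had an unadjusted p under 0.05, and 1 animal correlated best with its own number. The counts limit the 14 genes below the filter, whose highest count in any animal was 25.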
